A study of Mus musculus with 16 samples.

Results

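Trem2 and Tyrobp form the core of a signalling unit on the surface of myeloid cells, and 5 further genes act beside or below them. The 7 genes described here are Trem2, Tyrobp, Hcst, Syk, Plcg2, Inpp5d and Cd33, taken by symbol from a table of raw counts with 54532 entries. All 7 were in the table, each once, and 6 of the 7 were among the 17736 genes with enough counts to be tested. Hcst was too low for the test, and each of the 6 reached the filter's level (0.543 CPM in at least 4 libraries) without the Ch25h+/+ Tau+ libraries too. The study sequenced RNA from the brains of female mice, 9 months old, as 16 libraries in 4 groups of 4. The first group carried both copies of Ch25h and was labelled negative for tau (Ch25h+/+ Tau-), and the second carried both copies and was positive for tau (Ch25h+/+ Tau+). The other two lacked Ch25h, the gene for cholesterol 25-hydroxylase, without tau (Ch25h-/- Tau-) or with it (Ch25h-/- Tau+). The labels name neither a tau transgene, its promoter and the mouse line nor how Ch25h was removed, and they do not say whether each library is a separate mouse, so p-values measure the spread between these libraries.

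In microglia, the resident macrophages of the brain, Trem2 is a surface receptor for lipids and lipoproteins such as apolipoprotein E. Trem2 has no signalling tail and is held by the adaptor Tyrobp (DAP12), whose activation motif recruits the kinase Syk, while the related adaptor Hcst (DAP10) recruits phosphatidylinositol 3-kinase. Syk acts through phospholipase C gamma 2 (Plcg2), and the lipid phosphatase Inpp5d (SHIP1) and sialic acid receptors such as Cd33 are known as brakes on this route. Variants near or in several of these genes are associated with Alzheimer's disease in people.

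The 7 genes lie on 5 chromosomes of the mouse build GRCm38 in the GENCODE M21 annotation. Tyrobp (chr7:30413760-30417585, plus strand) and Hcst (chr7:30417712-30419854, minus strand) are neighbours whose 3′ ends face each other 126 bases apart. Cd33 is on the same chromosome (chr7:43524216-43544428, minus strand). Trem2 is at chr17:48346401-48354147, Syk at chr13:52583173-52648792, Plcg2 at chr8:117498291-117635142 and Inpp5d at chr1:87620312-87720507, all on the plus strand. No member shared exonic bases with another annotated gene.

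The RefSeq table of start sites (build GRCm38.p6) held 6 of the 7 members, with a pair of starts for Syk and hence 7 windows of the 250 bases before a start. Tyrobp was not matched. Of the 2 members that were called with tau, Trem2 is the one with a window, and it is shown with that of Inpp5d as a second example of a match. Capitals mark the letters GAGGAA, read on either strand (TTCCTC on the printed strand for Trem2), a core that the myeloid factor PU.1 (gene Spi1) is known to bind. The Trem2 window is chr17:48346151-48346400 and the Inpp5d window is chr1:87620062-87620311, both printed 5′ to 3′ on the plus strand.
Trem2: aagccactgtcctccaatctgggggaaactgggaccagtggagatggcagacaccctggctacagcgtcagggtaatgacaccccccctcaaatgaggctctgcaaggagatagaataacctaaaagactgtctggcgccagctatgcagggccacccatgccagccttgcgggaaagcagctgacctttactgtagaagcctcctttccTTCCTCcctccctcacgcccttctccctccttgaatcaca
Inpp5d: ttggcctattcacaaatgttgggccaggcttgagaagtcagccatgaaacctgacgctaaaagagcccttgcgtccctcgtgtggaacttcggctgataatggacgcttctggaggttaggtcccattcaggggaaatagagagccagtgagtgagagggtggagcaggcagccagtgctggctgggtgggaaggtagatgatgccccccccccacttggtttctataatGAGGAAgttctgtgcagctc
The match began 40 bases before the Trem2 start and 20 bases before the Inpp5d start, and the matches not printed lay 9 bases before the second Syk start and 226 bases before the Cd33 start. The motif GAGGAA was found in 4 of the 7 windows, those of Trem2, Inpp5d, Cd33 and the second Syk start, against 23.3% of 32851 RefSeq windows of the same length. Hcst, Plcg2 and the first Syk start had no match. No window held TTCNNNGAA on either strand, the core that STAT factors are known to bind, which was in 7.02% of all windows. These are matches of letters only.

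Libraries held 15530352 to 25602500 counts. Ch25h had 5 to 30 counts in the 8 Ch25h+/+ libraries and 0 in the 8 Ch25h-/- libraries, where a count of 0 allows up to 3 counts. Prnp, whose promoter drives several published tau transgenes, was at 708 to 839 CPM in Tau- and 1414 to 1935 CPM in Tau+ libraries (CPM, counts scaled to a common library size after correction for composition). Source labels say frontal cortex and the series text says hippocampus: 7 cortex markers summed to 854 to 1074 CPM and 7 hippocampus markers to 121.5 to 276.3 CPM, and both sets were present in every library. One transcript of ribosomal RNA origin was above 1000 CPM in 7 of the 8 Ch25h-/- libraries (2289 to 5684 CPM) and in none of the Ch25h+/+ libraries. The remaining Ch25h-/- library, Ch25h-/- Tau+ replicate 1, was among the 9 libraries at 111 to 475 CPM.

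Tau raised Trem2 in mice with Ch25h, and loss of Ch25h lowered it in mice with tau. Trem2 counted 14.5, 13.35, 12.2 and 13.35 CPM in the 4 Ch25h+/+ Tau- libraries and 31.1, 23.7, 27.6 and 41.1 CPM in the 4 Ch25h+/+ Tau+ libraries. The lowest tau library stood above the highest library without tau, and the spread was wider with tau. Without Ch25h, Trem2 counted 10.9, 11.5, 11.2 and 10.9 CPM in Tau- libraries. With tau and without Ch25h, it counted 12.1, 17.6, 10.6 and 12.9 CPM, which overlapped the group without tau and lay wholly under the Ch25h+/+ Tau+ group. In edgeR's quasi-likelihood test, with Benjamini-Hochberg adjustment over all genes, tau raised Trem2 2.31-fold in Ch25h+/+ mice (95% interval 1.85 to 2.89, adjusted p = 0.000208). Loss of Ch25h lowered Trem2 among Tau+ mice, by 1.22 on the log2 scale (SE 0.16), to 0.430 of the level with Ch25h (interval 0.343 to 0.539, adjusted p = 0.000432), a call that was lost with a term for ribosomal RNA in the fit (log2 change -1.35, adjusted p = 0.0904). Between the Ch25h-/- groups the ratio was 1.19 (interval 0.946 to 1.51), with an adjusted p of 1 in edgeR. In tissue RNA, fewer microglia and less RNA per microglial cell cannot be told apart.

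Tyrobp, the adaptor that carries the Trem2 signal, was also highest in the Ch25h+/+ Tau+ group. It counted 7.30, 7.001, 7.08 and 7.96 CPM in Ch25h+/+ Tau- libraries and 18.0, 15.5, 17.5 and 25.3 CPM in Ch25h+/+ Tau+ libraries. It counted 5.90, 6.41, 6.21 and 5.69 CPM in Ch25h-/- Tau- libraries, and 6.73, 9.03, 5.51 and 8.12 CPM in Ch25h-/- Tau+ libraries. The Ch25h+/+ Tau+ group was clear of the other 3 groups, and the highest Tyrobp and Trem2 values both came from its replicate 4. Tau raised Tyrobp 2.60-fold in Ch25h+/+ mice (95% interval 2.07 to 3.26; edgeR adjusted p = 6.517e-05). Loss of Ch25h in Tau+ mice lowered Tyrobp to 0.384 of its level (interval 0.306 to 0.483; edgeR adjusted p = 0.000117), a call also lost with the ribosomal RNA term (log2 change -1.50, adjusted p = 0.0536). Among Ch25h-/- mice the ratio of Tau+ to Tau- was 1.21 (interval 0.954 to 1.53; edgeR adjusted p = 1). Ch25h-/- Tau+ and Ch25h+/+ Tau- mice had group means of 7.35 ± 1.55 and 7.33 ± 0.436 CPM (SD, n = 4).

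**Figure D1:**
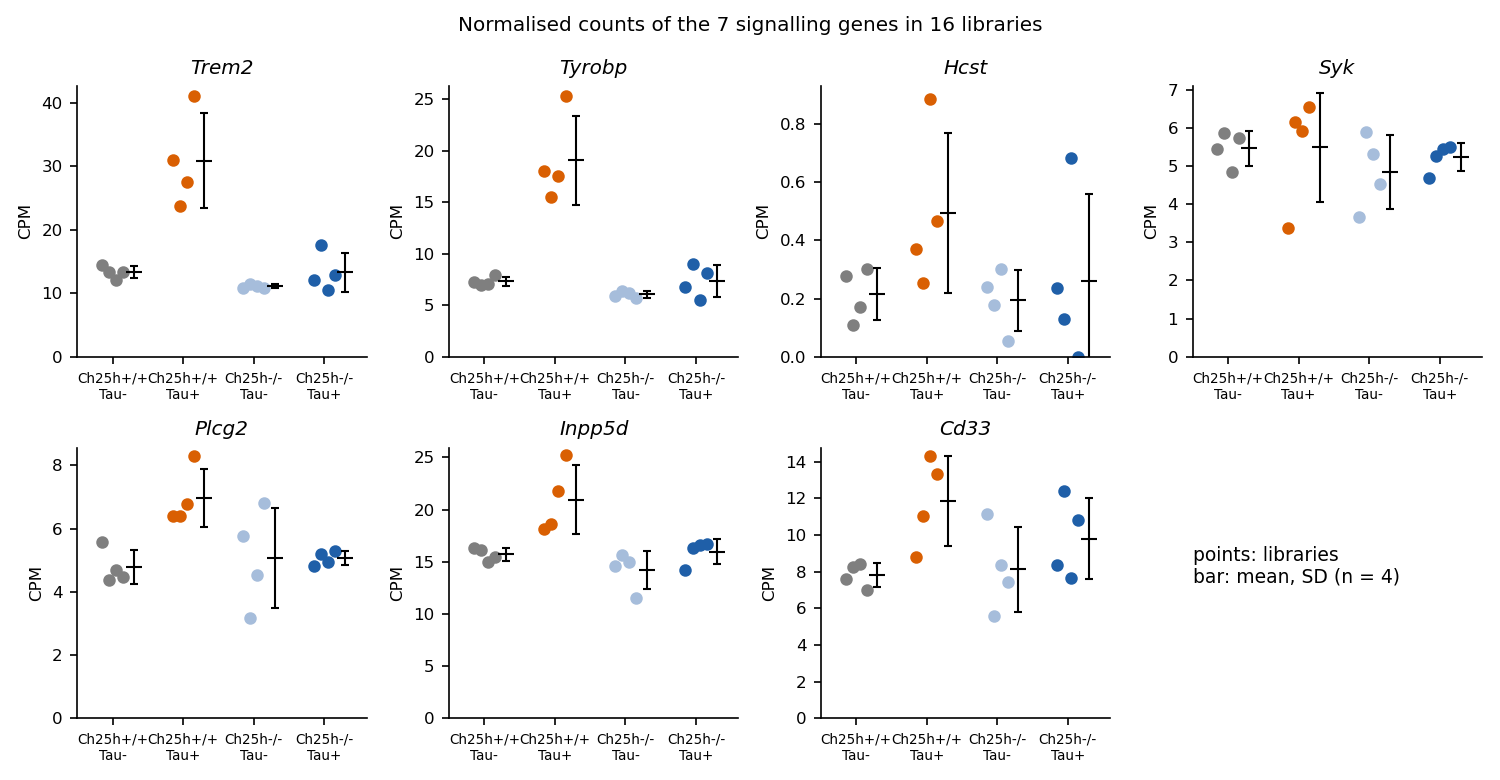
Normalised counts (CPM, vertical axes from 0) of the 7 genes in the 4 groups; each point is a library and the bar beside it is the mean with its SD (n = 4). Trem2 at 23.7 to 41.1 CPM and Tyrobp at 15.5 to 25.3 CPM in Ch25h+/+ Tau+ stand above all other libraries, while Syk overlaps across the 4 groups.

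Hcst, the second adaptor, was near the limit of detection, with 0 to 19 counts per library. Its level was 0.277, 0.109, 0.173 and 0.302 CPM in Ch25h+/+ Tau- libraries and 0.370, 0.252, 0.883 and 0.467 CPM in Ch25h+/+ Tau+ libraries. It was 0.241, 0.177, 0.301 and 0.0558 CPM in Ch25h-/- Tau- libraries and 0.235, 0.130, 0.682 and 0 CPM in Ch25h-/- Tau+ libraries. All 4 groups overlapped, and the count of 0 in one library allows up to 3 counts. When all genes with at least 1 count were fitted, the log2 change of Hcst with tau in Ch25h+/+ mice was 1.17 (SE 0.63; edgeR adjusted p = 0.833). A difference in Hcst was not detectable at this depth.

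Syk, the kinase recruited to the phosphorylated adaptor, overlapped across the 4 groups. It counted 5.45, 5.85, 4.83 and 5.74 CPM in Ch25h+/+ Tau- libraries and 3.39, 6.14, 5.90 and 6.54 CPM in Ch25h+/+ Tau+ libraries. It counted 3.67, 5.88, 5.30 and 4.52 CPM in Ch25h-/- Tau- libraries and 4.70, 5.26, 5.46 and 5.50 CPM in Ch25h-/- Tau+ libraries. The fold with tau in Ch25h+/+ mice was 1.01, with a 95% interval of 0.773 to 1.32 and an edgeR adjusted p of 0.997. This interval lies under those of Trem2 and Tyrobp, and the differences between genes were not tested. Without Ch25h+/+ Tau+ replicate 1, the log2 change of Syk moved from 0.01 to 0.19.

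Plcg2, the phospholipase that makes the calcium and diacylglycerol messengers, counted 5.59, 4.38, 4.70 and 4.48 CPM in Ch25h+/+ Tau- libraries. With tau it counted 6.41, 6.40, 6.79 and 8.31 CPM, all above the 4 libraries without tau. The Ch25h-/- Tau- group ran from 3.18 to 6.80 CPM around a mean of 5.07 ± 1.57 (SD, n = 4), and Ch25h-/- Tau+ ran from 4.81 to 5.31 CPM. The log2 change with tau in Ch25h+/+ mice was 0.54 (SE 0.18), which did not pass in edgeR (adjusted p = 0.231). Loss of Ch25h in Tau+ mice gave a log2 change of -0.46 (SE 0.18; edgeR adjusted p = 0.138), without overlap of the groups.

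Inpp5d removes the lipid that Plcg2 and the Akt route read. It counted 16.4, 16.1, 14.97 and 15.4 CPM in Ch25h+/+ Tau- libraries and 18.1, 18.6, 21.8 and 25.3 CPM in Ch25h+/+ Tau+ libraries, so the groups did not overlap. It counted 14.6, 15.7, 15.01 and 11.6 CPM in Ch25h-/- Tau- libraries and 14.2, 16.3, 16.7 and 16.7 CPM in Ch25h-/- Tau+ libraries. The log2 change with tau in Ch25h+/+ mice was 0.42 (SE 0.11; edgeR adjusted p = 0.0945), and that of Ch25h loss in Tau+ mice was -0.40 (SE 0.12; edgeR adjusted p = 0.0621). Neither passed, but both did with other tools: the adjusted p was 0.0382 and 0.0279 in DESeq2, and 0.0103 and 0.0166 in limma-voom. Single libraries moved these calls too. The change with tau passed in edgeR without Ch25h+/+ Tau+ replicate 1 (adjusted p = 0.0449), and that of Ch25h loss passed without Ch25h+/+ Tau+ replicate 2 (0.0322) or Ch25h-/- Tau- replicate 4 (0.0464).

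Cd33, a sialic acid receptor whose mouse protein differs from the human one in its cytoplasmic tail, counted 7.62, 8.26, 8.41 and 7.003 CPM in Ch25h+/+ Tau- libraries. It counted 8.81, 11.02, 14.3 and 13.4 CPM in Ch25h+/+ Tau+ libraries, all above those without tau. The Ch25h-/- groups were widely spread, with 5.59 to 11.1 CPM in Tau- and 7.67 to 12.4 CPM in Tau+ libraries. The log2 change with tau in Ch25h+/+ mice was 0.60 (SE 0.20) and did not pass in edgeR (adjusted p = 0.196) or DESeq2, but passed in limma-voom (adjusted p = 0.0247). Loss of Ch25h in Tau+ mice gave -0.28 (SE 0.20; edgeR adjusted p = 0.394), with overlap between the groups.

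For tau in Ch25h+/+ mice, 2 of the 6 tested members, Trem2 and Tyrobp, passed the adjusted threshold of 0.05 as higher, against 1.47% of all genes tested. The other 4 did not pass, and all 6 values were positive, with a median log2 change of 0.57 against -0.01 over all genes. The groups did not overlap for 5 of the 6, every tested member but Syk, against 5.86% of all genes. In the same contrast among Ch25h-/- mice, 0 of 6 passed in edgeR, against 0.0282% of all genes called higher, 0 had an unadjusted p under 0.05, against 3.68% of all genes, and DESeq2 and limma-voom called 0. No member was free of overlap there, against 2.14% of genes, and the median log2 change was 0.21.

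For loss of Ch25h in Tau+ mice, the same 2 members, Trem2 and Tyrobp, passed as lower, against 2.40% of all genes. All 6 values were negative, with a median log2 change of -0.43, and 4 of 6 members had no overlap (Trem2, Tyrobp, Plcg2 and Inpp5d), against 10.2% of genes. This contrast and the tau contrast in Ch25h+/+ mice share the 4 Ch25h+/+ Tau+ libraries, so their opposite signs are not independent. With the class of ribosomal RNA as a term in the fit, 0 of 6 passed for Ch25h loss in Tau+, against 0.0507% of all genes called lower in that fit: the log2 change was -1.35 for Trem2 (adjusted p = 0.0904) and -1.50 for Tyrobp (adjusted p = 0.0536). Only Ch25h-/- Tau+ replicate 1, with 12.1 CPM of Trem2 and 6.73 CPM of Tyrobp, separates the class from the genotype, and a single library gives no test of their parts.

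For loss of Ch25h in Tau- mice, 0 of 6 members passed in edgeR, against 0.812% of genes called lower, with 0 at an unadjusted p under 0.05, against 20.9% of all genes, and 0 in DESeq2 and limma-voom. Trem2 (log2 change -0.26, SE 0.16) and Tyrobp (-0.28, SE 0.16) were lower without overlap in this contrast, 2 of 6 members, against 16.2% of all genes. Their edgeR adjusted p was 0.354 and 0.338. The difference between the tau effects with and without Ch25h was -0.95 for Trem2 (SE 0.22, unadjusted p = 0.000413) and -1.10 for Tyrobp (SE 0.23, unadjusted p = 0.000112). These ranked 40 and 19 of all genes by p, and neither passed after adjustment in edgeR (adjusted p = 0.179 and 0.10). For this interaction 0 of 6 members passed, against 0.0338% of genes called lower, and 2 of 6 had an unadjusted p under 0.05, against 4.13% of genes. DESeq2 called both (adjusted p = 0.0196 and 0.00444), as did edgeR without the filter on low counts (0.0166 and 0.0129), while limma-voom called neither (0.211 and 0.131). Whether the tau effect on these 2 genes differs with Ch25h was thus called by some tools and filters and not by others. The other 4 members had an unadjusted p of 0.0509 (Plcg2) to 0.729 (Syk).

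**Figure D2:**
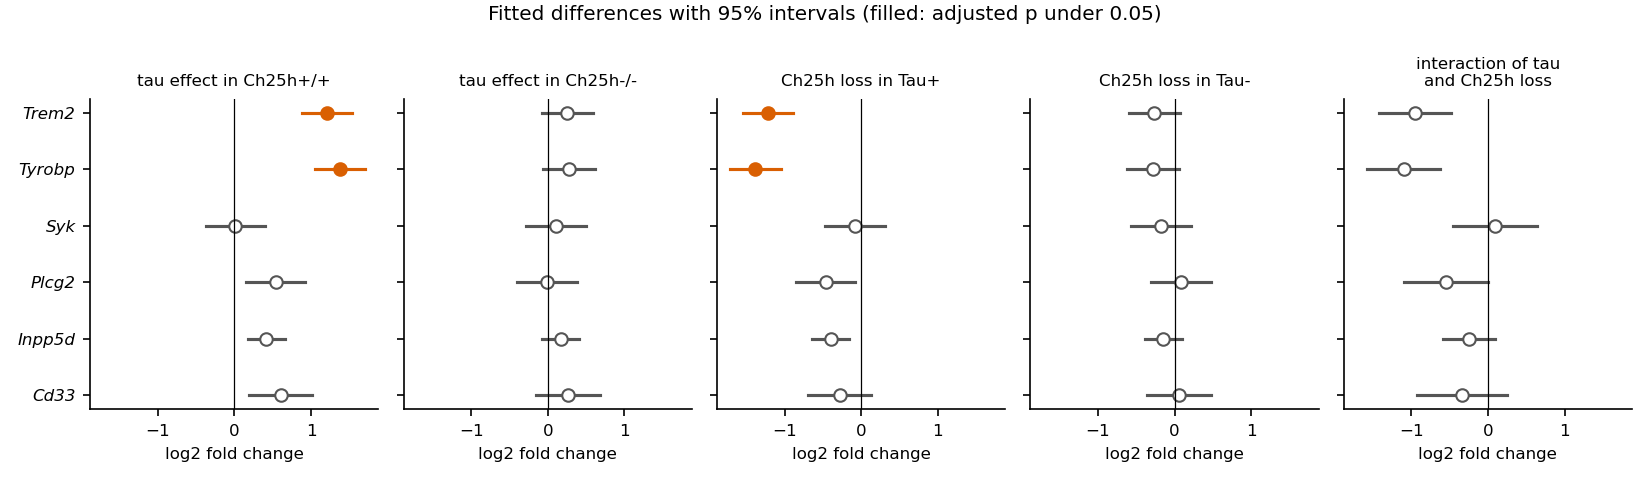
Fitted log2 fold changes (horizontal axes) of the 6 tested members in the 5 contrasts, with 95% intervals; filled orange points passed an adjusted p of 0.05. Trem2 and Tyrobp are filled for tau in Ch25h+/+ (1.21 and 1.38) and for Ch25h loss in Tau+ (-1.22 and -1.38) and in no other panel.

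Trem2 and Tyrobp moved together library by library. The ratio of Trem2 to Tyrobp in CPM was 1.82 ± 0.148 in Ch25h+/+ Tau-, 1.61 ± 0.0841 in Ch25h+/+ Tau+, 1.84 ± 0.0544 in Ch25h-/- Tau- and 1.82 ± 0.162 in Ch25h-/- Tau+ mice (SD, n = 4). Across the 16 libraries the Pearson correlation of their log2 levels was 0.9899, and it was 0.913 after the group means were removed, as a description of libraries that share depth and tissue makeup. The other tested members tracked Trem2 less closely after group means were removed, from 0.09 for Syk to 0.46 for Inpp5d. The ratio of Trem2 to Syk was 2.45 ± 0.177 in Ch25h+/+ Tau- and 5.997 ± 2.34 in Ch25h+/+ Tau+ libraries, and 2.36 ± 0.446 and 2.56 ± 0.591 in the Ch25h-/- groups. The ratio of Trem2 to its brake Inpp5d was 0.848 ± 0.0343 and 1.47 ± 0.235 with Ch25h, and 0.792 ± 0.0998 and 0.836 ± 0.186 without it. In both ratios the Ch25h+/+ Tau+ libraries lay above every other library.

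**Figure D3:**
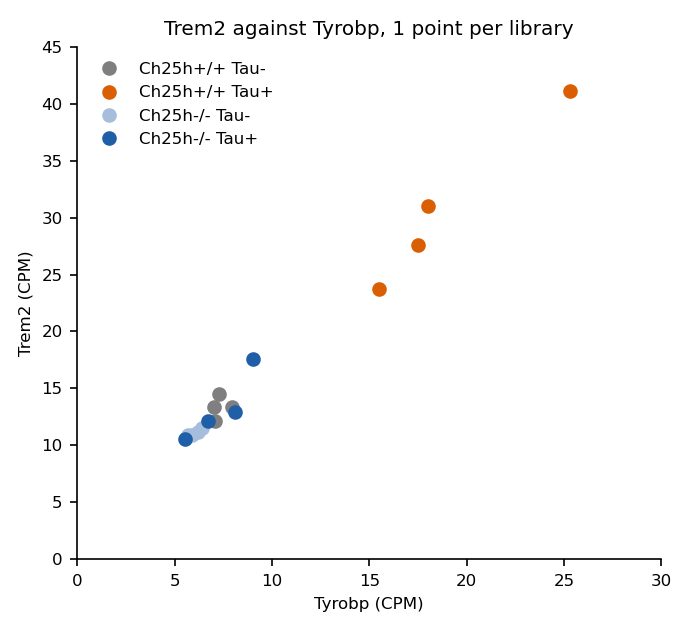
Trem2 (vertical axis, CPM) against Tyrobp (horizontal axis, CPM), 1 point per library and 1 colour per group. The 4 Ch25h+/+ Tau+ libraries, at 15.5 CPM of Tyrobp and above, stand apart at the upper right, and Ch25h-/- Tau+ libraries lie with the Tau- libraries along the same line.

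Per length of the main transcript, the receptor and its adaptor were the most abundant members in every group. In Ch25h+/+ Tau- mice the level per kilobase was 13 ± 0.773 CPM for Tyrobp and 12.3 ± 0.878 CPM for Trem2, which overlapped (SD, n = 4). This near equality depends on the length used. All annotated exons of Trem2 cover 4946 bases, against 1088 in the main transcript, and those of Tyrobp 667 against 564. Inpp5d followed at 3.18 ± 0.130 CPM per kilobase, and then Cd33 at 1.37 ± 0.113, Plcg2 at 1.11 ± 0.128 and Syk at 1.02 ± 0.0853, with Hcst last at 0.487 ± 0.204. Cd33 overlapped Plcg2 and Plcg2 overlapped Syk, while Inpp5d and Cd33 did not overlap, nor did Syk and Hcst. In Ch25h+/+ Tau+ mice the order of the group means was the same down to Plcg2, with Tyrobp at 33.8 ± 7.61 and Trem2 at 28.4 ± 6.87 CPM per kilobase, while Hcst, at 1.12 ± 0.621, overlapped Syk, at 1.02 ± 0.266.

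Of the 10 microglia markers, 2 passed in edgeR as higher with tau in Ch25h+/+ mice and 4 as lower with Ch25h loss in Tau+ mice, Cx3cr1 in both, with median log2 changes of 0.25 and -0.26, against 1.47% and 2.40% of all genes. The 10 microglia markers summed to 270 to 304 CPM in Ch25h+/+ Tau- and 330 to 433 CPM in Ch25h+/+ Tau+ libraries, and to 267 to 299 and 273 to 324 CPM in the Ch25h-/- groups. Each member was therefore also expressed per library as its log2(CPM + 0.5) minus the mean over those 10 markers. On that scale the difference with tau in Ch25h+/+ mice was 0.91 for Trem2, 1.05 for Tyrobp and 0.25 for Plcg2, without overlap. Those were 3 of 7 members without overlap, against 17.1% of genes, and the exact two-sided permutation p was 0.0286 for each, the smallest that 4 against 4 libraries allow, or 0.133 adjusted over 28 tests. Loss of Ch25h in Tau+ mice gave -0.97 for Trem2, -1.11 for Tyrobp and -0.21 for Plcg2, again 3 of 7 without overlap, against 20.6% of genes and with the same exact p. For tau in Ch25h-/- mice 0 of 7 were without overlap, against 2.05%, and for Ch25h loss in Tau- mice 0 of 7, against 9.97%.

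Against 6 markers shared by microglia and other myeloid cells, among them Aif1, Csf1r, Spi1 and Laptm5, the members fell on both sides of 0. In edgeR 5 of the 6 passed as higher with tau in Ch25h+/+ mice, against 1.47% of all genes. With Ch25h loss in Tau+ mice 5 passed as lower, against 2.40%. The median log2 changes of the 6 were 0.70 and -0.60. The 6 markers summed to 248 to 266 CPM in Ch25h+/+ Tau- and 336 to 461 CPM in Ch25h+/+ Tau+ libraries. Relative to them Trem2 stood at 0.49 and Tyrobp at 0.63, while Syk stood at -0.69, Inpp5d at -0.27 and Plcg2 at -0.17, all 5 without overlap, against 72.9% of all genes on this scale. With loss of Ch25h in Tau+ mice the same 5 had no overlap, at -0.53 for Trem2, -0.67 for Tyrobp, 0.62 for Syk, 0.28 for Inpp5d and 0.23 for Plcg2, against 63.6% of all genes. A count of 5 of 7 is near these shares, so the lack of overlap on this scale says nothing particular to the members. For tau in Ch25h+/+ mice, Trem2 and Tyrobp were positive and Syk negative under both sets of markers. Plcg2, Inpp5d, Cd33 and Hcst changed sign between the sets. Border-associated macrophage markers (8 genes) summed to 7.10 to 15.5 CPM in Ch25h+/+ Tau- and 14.6 to 24.0 CPM in Ch25h+/+ Tau+ libraries, and to 7.71 to 18.2 and 9.31 to 17.1 CPM in the Ch25h-/- groups. Of the 8, Ms4a7 passed as higher with tau in Ch25h+/+ mice (log2 change 1.83, edgeR adjusted p = 0.00808) and as lower with Ch25h loss in Tau+ mice (-1.39, edgeR adjusted p = 0.0370), but it passed the filter only through the Ch25h+/+ Tau+ libraries. Monocyte and neutrophil markers summed to at most 3.05 CPM in any library, with Ly6g at 0 in the Ch25h+/+ Tau+ and Ch25h-/- Tau- libraries. Across the 16 libraries, sums of T and NK cell markers were at 5.42 to 13.8 CPM, B cell markers at 19.8 to 42.99 CPM, blood markers at 2.32 to 37.7 CPM and choroid plexus markers at 15.3 to 2753 CPM. Neuron, astrocyte and oligodendrocyte markers summed to 5725 to 7499, 2291 to 4136 and 1753 to 4327 CPM. The sums of these 7 lists overlapped between the groups in both contrasts. Trbc2 made up most of the T and NK sum and Ighm most of the B cell sum. The other T and NK genes had at most 10 counts per library and were not tested, so the sums say little about them. Of these, Cd3d, Cd3e, Cd8a and Klrb1c were lower without overlap with Ch25h loss in Tau+ mice, while Cd3g, Nkg7, Ncr1 and Gzma overlapped. With tau in Ch25h+/+ mice Cd3g and Klrb1c were higher without overlap, and the others overlapped. The part of border-associated macrophages in the members' changes was not tested.

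**Figure D4:**
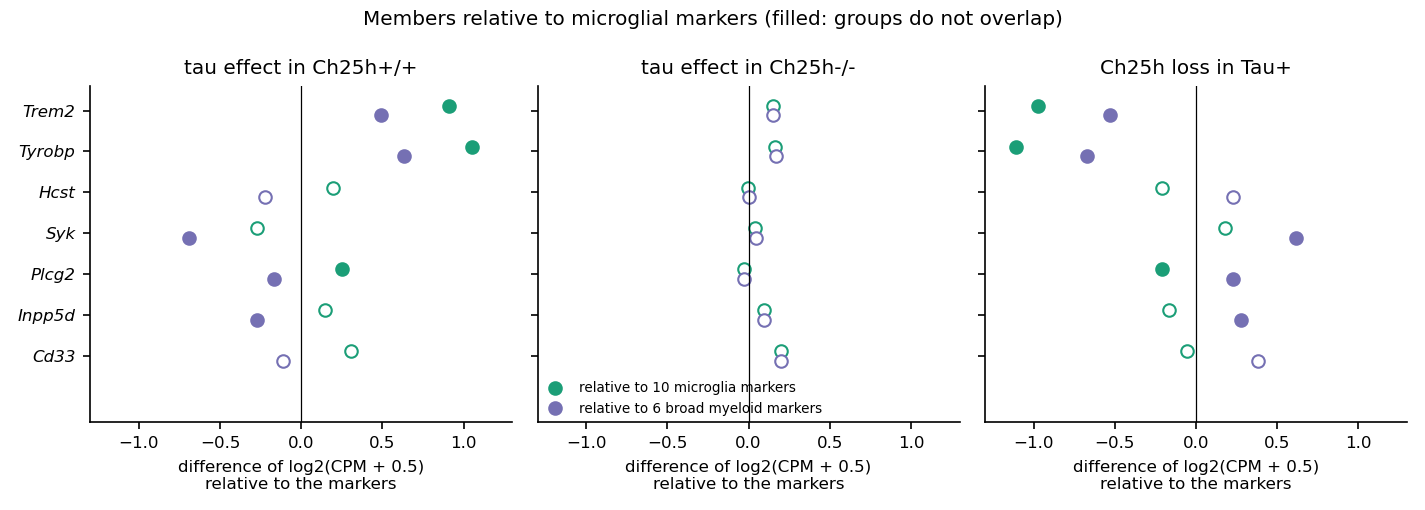
Difference between groups in each member's log2(CPM + 0.5) relative to 10 microglia markers (green) or 6 broad myeloid markers (purple), for 3 contrasts; filled points mark groups of 4 libraries that do not overlap. Trem2 and Tyrobp are filled on the same side with both sets in the left and right panels, and no point is filled for tau in Ch25h-/-.

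Among non-member genes, Laptm5 most resembled both Trem2 and Tyrobp across the 16 libraries. For Trem2 the 5 highest Pearson correlations, among 13954 genes compared, were those of Laptm5 (0.9746), Lag3 (0.968), Unc93b1 (0.964), C1qa (0.962) and Cd68 (0.954). For Tyrobp they were Laptm5 (0.978), Unc93b1 (0.969), Lag3 (0.966), Ctsz (0.965) and C1qa (0.964). C1qa, a chain of the complement starter C1q, was at 45.9, 116.8, 37.9 and 40.2 CPM in the 4 groups, those with Ch25h first and the Tau- group first within each pair. Lag3, an inhibitory receptor, was at 9.31, 31.0, 7.48 and 10.2 CPM. After group means were removed, the 5 nearest to Trem2 included Cd68 (0.821), Laptm5 (0.821), Itgb2 (0.778) and Parn (0.774). The 5 nearest to Tyrobp then included Laptm5 (0.857), Cd84 (0.828), Slc25a18 (0.816) and Fmnl3 (0.811). These correlations describe libraries that share tissue composition.

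Upstream of the members, 3 of 8 tested genes passed as higher with tau in Ch25h+/+ mice, against 1.47% of all genes, and 4 of 8 as lower with Ch25h loss in Tau+ mice, against 2.40%. The same shares apply to the lists that follow. Of 4 ligands and sheddases of Trem2, Apoe and Clu, both lipoproteins that bind Trem2, passed as higher, and the proteases Adam10 and Adam17 did not. Apoe was at 1571 ± 127 CPM without tau and 2456 ± 491 CPM with it (SD, n = 4), and at 1302 ± 136 and 1369 ± 118 CPM in the Ch25h-/- groups. The log2 change of Apoe was 0.64 (SE 0.12; edgeR adjusted p = 0.00561) for tau in Ch25h+/+ mice and -0.84 (SE 0.12; edgeR adjusted p = 0.00112) for Ch25h loss in Tau+ mice. Clu changed by 0.50 and -0.44 in the same contrasts (edgeR adjusted p = 0.00488 and 0.0161). Of 14 other receptors listed as users of Tyrobp or Hcst, 4 were tested. The colony-stimulating factor receptor Csf1r, also one of the 6 broad myeloid markers, passed as higher with tau (log2 change 0.50, edgeR adjusted p = 0.00153). With loss of Ch25h in Tau+ mice, Csf1r (-0.47, edgeR adjusted p = 0.00404) and Clec5a (-1.10, edgeR adjusted p = 0.00887) passed as lower. One of the 4, Treml2, was called in neither contrast and passed the filter only through the Ch25h+/+ Tau+ libraries. The median log2 change of the other 3 was 0.50 with tau in Ch25h+/+ mice and -0.47 with Ch25h loss in Tau+ mice. With the ribosomal RNA term, 0 genes of either list passed for Ch25h loss in Tau+ mice.

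Some signalling genes between the adaptor and its outputs were called. Several listed genes were far above the members in Ch25h+/+ Tau- mice, such as Prkcb (471.5 CPM), Akt1 (210.1 CPM) and Grb2 (166.2 CPM). The highest member there, Inpp5d, was at 15.7 CPM. In tissue RNA the microglial share of these genes is not known, so a list median near 0 does not describe microglia. Of 8 Src and Tec kinases, which phosphorylate the adaptor and act on phospholipase C, Fgr and Lyn passed in edgeR as higher with tau in Ch25h+/+ mice. With Ch25h loss in Tau+ mice 3 of the 8, Fgr and Lyn among them, passed as lower, or 1 with the ribosomal RNA term. DESeq2 called 2 and 3 of the 8 in these contrasts, and limma-voom 4 and 4. Fgr passed the filter only through the Ch25h+/+ Tau+ libraries, so the filter itself favoured a difference. Among the other 7 kinases 1 passed in edgeR as higher and 2 as lower. Fgr was at 0.152 ± 0.0698 CPM in Ch25h+/+ Tau- and 1.42 ± 0.236 CPM in Ch25h+/+ Tau+ mice, and at 0.0279 ± 0.0558 and 0.228 ± 0.118 CPM in the Ch25h-/- groups (SD, n = 4). Lyn was at 7.42 ± 0.882, 11.8 ± 1.61, 7.96 ± 1.18 and 7.69 ± 1.39 CPM in the same order. Of 12 adaptors and exchange factors downstream of Syk, 0 passed in either contrast in edgeR, with 5 and 6 at an unadjusted p under 0.05, against 9.38% and 23.9% of all genes. DESeq2 called 1 and 2 of these and limma-voom 2 and 2. Their median log2 change with tau was 0.07. Of 17 genes of the phosphatidylinositol 3-kinase and second messenger steps, Pik3cg, the leukocyte catalytic subunit gamma, and Prkcd, protein kinase C delta, passed as higher with tau, and Prkcd passed as lower with Ch25h loss in Tau+ mice. Prkcd was at 9.60 ± 1.31 CPM without tau and 15.7 ± 1.99 CPM with it. The median of these 17 was 0.01 with tau.

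Some genes for inhibitory receptors and for phosphatases were called. Of 12 inhibitory receptors and phosphatases tested, 5 passed as higher with tau in Ch25h+/+ mice (Ptprc, Siglecf, Ptpn6, Lilrb4a and Pirb). With Ch25h loss in Tau+ mice 4 passed as lower in edgeR (Ptpn6, Ptprc, Lilrb4a and Siglecf). In that contrast DESeq2 called 4 of the 12, limma-voom 7, and edgeR with the ribosomal RNA term 0. Lilrb4a and Pirb passed the filter on low counts only through the Ch25h+/+ Tau+ libraries, so the filter itself favoured a difference. Among the other 10 genes, 3 passed in edgeR as higher and 3 as lower, with median log2 changes of 0.51 and -0.71. Ptpn6 (SHP-1), the phosphatase recruited by inhibitory receptors, was at 3.89 ± 0.862 CPM without tau and 8.03 ± 1.22 CPM with it in Ch25h+/+ mice, and at 4.11 ± 0.405 and 4.15 ± 0.917 CPM in the Ch25h-/- groups (SD, n = 4). Ptprc (CD45), a phosphatase that acts on Src kinases in both directions, rose by 1.32 on the log2 scale with tau (SE 0.17; edgeR adjusted p = 0.000272). Siglecf, a sialic acid receptor related to Cd33, was at 0.363 ± 0.196 CPM without tau and 2.42 ± 0.557 CPM with it.

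Of 14 microglial genes known to need Trem2 for their induction, 10 passed as higher with tau in Ch25h+/+ mice and 10 passed as lower with Ch25h loss in Tau+ mice. Cst7, Clec7a and Itgax passed the filter only through the Ch25h+/+ Tau+ libraries, so the filter itself favoured a difference. Among the other 11 genes, 7 passed as higher and 7 as lower, with median log2 changes of 0.91 and -0.74. Clec7a, a receptor for fungal glucans, was at 0.0462 to 0.219 CPM in Ch25h+/+ Tau- libraries and 4.25 to 10.6 CPM in Ch25h+/+ Tau+ libraries, and reached at most 2.47 CPM in Ch25h-/- Tau+ libraries. Itgax, the integrin CD11c, was at 0.0863 to 0.508 CPM and 3.203 to 21.9 CPM in the 2 groups with Ch25h, and at most 2.73 CPM in Ch25h-/- Tau+ libraries. Csf1, a ligand of Csf1r, was at 23.2 ± 1.44 CPM and 38.1 ± 5.61 CPM with Ch25h, and at 23.5 ± 1.03 and 24.5 ± 1.93 CPM without it (SD, n = 4). Of the 71 tested genes of these 7 lists, 0 passed in edgeR for tau in Ch25h-/- mice, for Ch25h loss in Tau- mice or for the interaction, with 4, 9 and 23 at an unadjusted p under 0.05, against 3.68%, 20.9% and 4.13% of all genes. DESeq2 called 0, 2 and 3 of them, and limma-voom 0, 3 and 0. With the class of ribosomal RNA in the fit, Ch25h loss in Tau+ called 1 Src or Tec kinase and 0 genes of the other 6 lists. The lists were not tested against other genes.

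**Figure D5:**
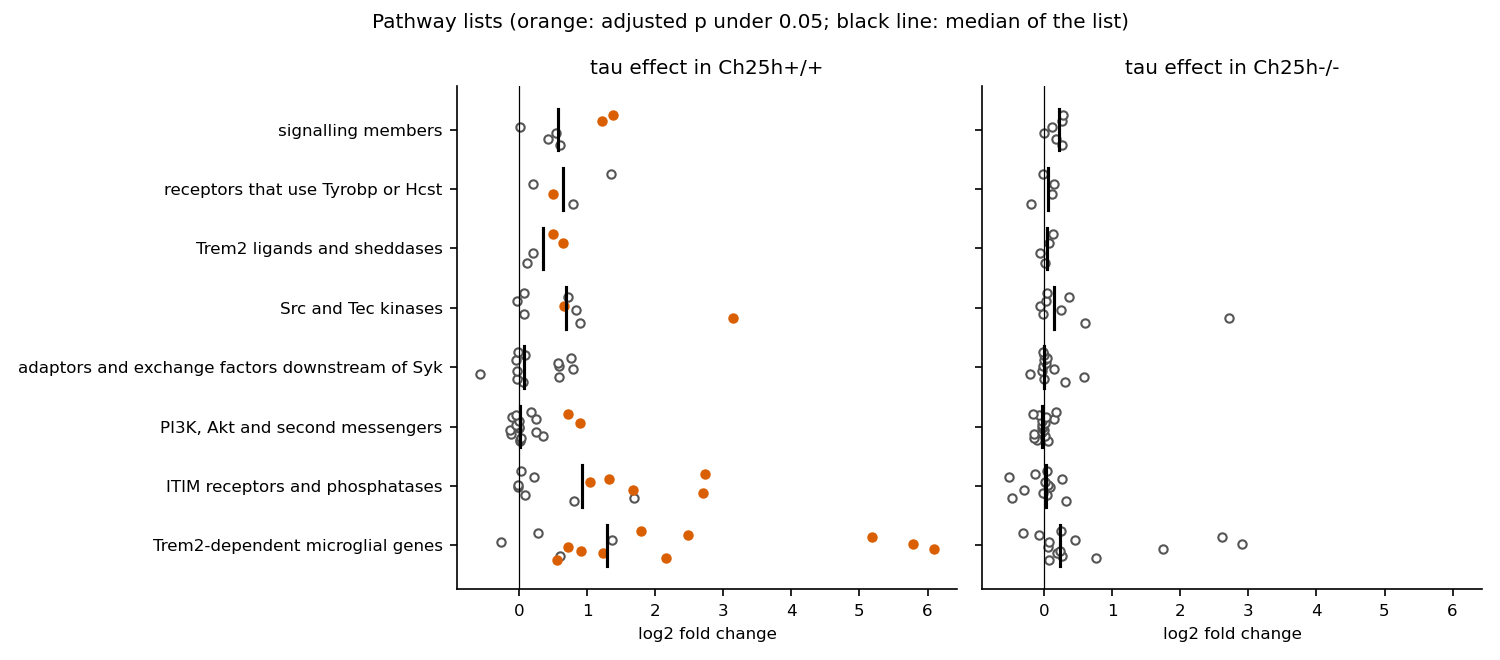
Log2 fold changes (horizontal axes) of the tested members and of 7 lists of related genes for tau in Ch25h+/+ (left) and in Ch25h-/- (right); each point is a gene, orange points passed an adjusted p of 0.05 and the black line is the list's median over its tested genes. The values past 5 on the left belong to genes with almost no counts without tau and depend on the prior count; no point is orange on the right.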

How the data were processed

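Per the labels, RNA isolated on columns went into SMARTer mRNA libraries. The deposited values are raw counts per gene and library, with no normalization by the authors. The submitters' processing notes name STAR 2.7, GRCm38 and mm10. The counting program, annotation and use of strand are not given in the sources used here. Groups come from the genotype labels, and replicate numbers only name libraries.

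Counts were filtered with filterByExpr, scaled by TMM and fitted with edgeR 4.0.16 (R 4.3.3), 1 mean per group over 16 libraries with 12 residual degrees of freedom. The quasi-likelihood test was two-sided, Benjamini-Hochberg adjusted over 17736 genes, with a threshold of 0.05. DESeq2 1.42.0, limma-voom (limma 3.58.1), other scalings and filters, a ribosomal RNA term and the omission of each library were alternatives. Levels relative to markers used a pseudocount of 0.5 CPM and exact permutation. Lengths are of the longest principal transcript, symbols were matched to GENCODE M21, and promoters to RefSeq. Intervals and floors cover counting error and the spread between libraries only. The members and lists were chosen with earlier results of these data known. Named genes are all members and, of each list and contrast, up to 3 with the smallest p past the threshold. For likeness, the 5 highest correlations of each kind are named. Others (Cx3cr1, Ms4a7, Ly6g, Treml2, Cst7, Prkcb, Akt1, Grb2, the T, NK and B cell genes, and the list genes beyond 3) were named after their values were seen. Some genes that this rule would name are not reported here.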

Additional observations from a re-analysis of the deposited data

Results flagged for a closer look

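One group of the 28 formed by 7 members and 4 groups held a library that stood apart from the other 3. Inpp5d in Ch25h-/- Tau+ replicate 1 was at 14.2 CPM, against 16.3 to 16.7 CPM in the other 3 libraries of that group, and its gap to them took up 0.852 of the group's range. Chance alone marks about 1 group in 20 by this rule. This is the Ch25h-/- library with a low level of the ribosomal RNA transcript (153.5 CPM), and the part of that difference was not tested.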

How the results depend on the processing

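No paired analysis was possible because the labels give no replicate numbers, and the numbers used here only name libraries. Over the 30 log2 fold changes of members, 620 of 654 alternative values kept direction and side of the threshold, 2 lost the threshold, 12 gained it and 20 changed sign. The calls of Trem2 and Tyrobp held without each of the 16 libraries, at 1.04 to 1.33 and 1.21 to 1.48 for tau in Ch25h+/+ and at -1.39 to -1.06 and -1.51 to -1.22 for Ch25h loss in Tau+. The number of members called for tau in Ch25h+/+ was 2, or 3 in DESeq2 and 4 in limma-voom; for Ch25h loss in Tau+ it was 2, or 3 in DESeq2 and in limma-voom and 0 with the ribosomal RNA term; for the interaction it was 0, or 2 in DESeq2 and with no filter on low counts. Without single libraries these counts were 2 to 3, 2 to 3 and 0 to 0. Members free of overlap relative to markers were 3 in the first pair of contrasts, or 5 and 5 with the broad myeloid markers, on which scale 72.9% and 63.6% of all genes were free of overlap; without single libraries they were 3 to 4 and 3 to 3, and 0 to 1 for Ch25h loss in Tau-, the 1 arising without Ch25h+/+ Tau- replicate 3.

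Counts over all genes depended more on the tool. They were 277, 7, 629, 182 and 6 for tau in Ch25h+/+, tau in Ch25h-/-, Ch25h loss in Tau+, Ch25h loss in Tau- and the interaction. DESeq2 gave 424, 14, 1397, 967 and 55. With no filter, tau in Ch25h-/-, Ch25h loss in Tau- and the interaction gave 28, 522 and 57. In limma-voom, tau in Ch25h+/+ and Ch25h loss in Tau+ and in Tau- gave 498, 1883 and 1388. With only the libraries compared, Ch25h loss gave 106 in Tau+ and 1229 in Tau-. With the ribosomal RNA term, Ch25h loss gave 10 in Tau+ and 0 in Tau-, and the interaction 3. Without single libraries the 5 counts ranged from 160 to 299, 6 to 13, 108 to 1691, 3 to 1306 and 0 to 22.

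Sign changes fell on small values. In limma-voom Plcg2 was 0.113 for tau in Ch25h-/- and -0.0187 for Ch25h loss in Tau-, Cd33 was -0.0582 for Ch25h loss in Tau-, and Syk was -0.0258 for the interaction. With the ribosomal RNA term Plcg2 was 0.0206 and -0.0148 and Cd33 -0.241 in those contrasts. Without single libraries Syk ran from -0.0776 to 0.188 for tau in Ch25h+/+, -0.0112 to 0.209 for tau in Ch25h-/-, -0.254 to 0.00285 for Ch25h loss in Tau+ and -0.0865 to 0.187 for the interaction. Plcg2 ran from -0.180 to 0.168 for tau in Ch25h-/- and -0.0981 to 0.2497 for Ch25h loss in Tau-, and Cd33 from -0.131 to 0.194 for Ch25h loss in Tau-. The cause was not tested. Depth limits Hcst, at 0 to 19 counts per library.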
